A study of Mus musculus with 6 samples.

Results

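Fibroblast growth factors (FGFs) are secreted signals that bind receptor tyrosine kinases at the cell surface. The genes described here are 7 ligands (Fgf1, Fgf2, Fgf7, Fgf9, Fgf10, Fgf18 and Fgf21) and 3 receptors (Fgfr1, Fgfr2 and Fgfr3). They were taken by symbol, and all 10 were found among the 20325 genes of the expression table. RNA came from C3H10T1/2 cells, a multipotent mesenchymal line derived from C3H mouse embryos, cultured in serum and used at passage 10 to 15. The 3 control samples were parental cells given a scrambled small interfering RNA (siRNA), and the 3 knockdown samples received siRNAs against Ring1a and Ring1b. The design asks how the transcriptome of these progenitors changes with that knockdown. All samples are 1 cell line, and whether replicates were separate cultures is not stated in the labels. The p-values therefore cover the spread among these 6 samples alone, and it may be technical.

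A bound FGF brings receptors together with heparan sulfate chains as a cofactor, and the activated receptor signals through the adaptor Frs2 to the Ras-ERK, PI3K-Akt and phospholipase C pathways. Sprouty proteins and dual-specificity phosphatases damp the signal, and ETS factors such as Etv4 and Etv5 are among its transcriptional outputs. In the skeleton and limb, Fgf18 and Fgfr3 restrain the growth of cartilage, and Fgf10 and Fgf7 from mesenchyme act on the epithelial isoform of Fgfr2. Ring1a and Ring1b, encoded by Ring1 and Rnf2, carry the ubiquitin ligase activity of Polycomb repressive complex 1, which acts on histone H2A at silent developmental genes. Its occupancy was not measured in these libraries.

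Each value is an RSEM estimate of a gene's reads, median-normalized by the authors, and a fold change is knockdown over control. Depth was estimated by taking the most common value above 0 in a library as 1 read. It ran from 4600000 reads in knockdown replicate 2 to 51800000 in control replicate 1, so 3 reads are worth 12.8 units in the former and 0.777 in the latter. Knockdown replicate 2 stood apart: its log2 values correlated with those of the other knockdown libraries at r = 0.867 and 0.855, against 0.993 between those 2. Ribosomal protein genes took 20.6% of its total and 5.07 to 5.81% elsewhere. Rnf2 fell from 814 ± 15.4 to 119 ± 38.7 (SD, n = 3; log2 fold change −2.82, limma adjusted p = 0.00946), whereas Ring1 measured 336, 386 and 374 in control cells and 162, 268 and 186 after knockdown (limma adjusted p = 0.104). Without control replicate 1, 2 or 3 or knockdown replicate 1, the limma adjusted p of Rnf2 was 0.0735, 0.0742, 0.0852 and 0.0646, and without knockdown replicate 2 that of Ring1 was 3.86e-06. Of 12 mesenchymal markers 11 passed the filter on low values. Of the 11, 1 was called, Eng (higher, limma adjusted p = 0.0377), beside 4.98% of all tested genes. In the knockdowns 4 of the 11 were above and 3 below every control, as were 20.5% and 23.7% of all tested genes. Pdgfra, with means of 4602 and 1858, was among those below. The sum of the 12, mostly Col1a1, Col1a2 and Vim, lay between 277498 and 394663 in every library. Summed endothelial, epithelial, leukocyte and skeletal muscle markers did not exceed 166, 42.5, 17.0 and 5.63. In bulk RNA, fewer cells expressing a gene and less RNA per cell cannot be told apart.

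With all 6 libraries, Fgf18 was the FGF ligand called higher, and Fgfr2 and Fgfr3 were the receptors called lower. Fgfr1 was also lower in every knockdown than in any control, but did not pass. Of the 10 genes, 7 had a mean of at least 10 over the 6 libraries and were tested with limma on log2(value + 1), a scale that understates the change of low genes, with Benjamini-Hochberg adjustment over all 12085 tested genes. At an adjusted p of 0.05, 1 of the 7 was higher and 2 were lower in the knockdowns. Of all tested genes, 3.2% were called higher and 1.78% lower, 4.98% in all. The median log2 fold change was −0.63 over the 7 genes and 0.01 over all tested genes. In 5 of the 7, the knockdown libraries lay wholly to one side of the controls (1 higher, 4 lower), and the same held for 44.3% of all tested genes (20.5% higher, 23.7% lower). Without knockdown replicate 2 the test called 2 of the 7 higher (Fgf7 and Fgf18) and 3 lower (all 3 receptors), where it called 23.8% of all genes higher and 26.1% lower, 49.9% in all.

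**Figure D1:**
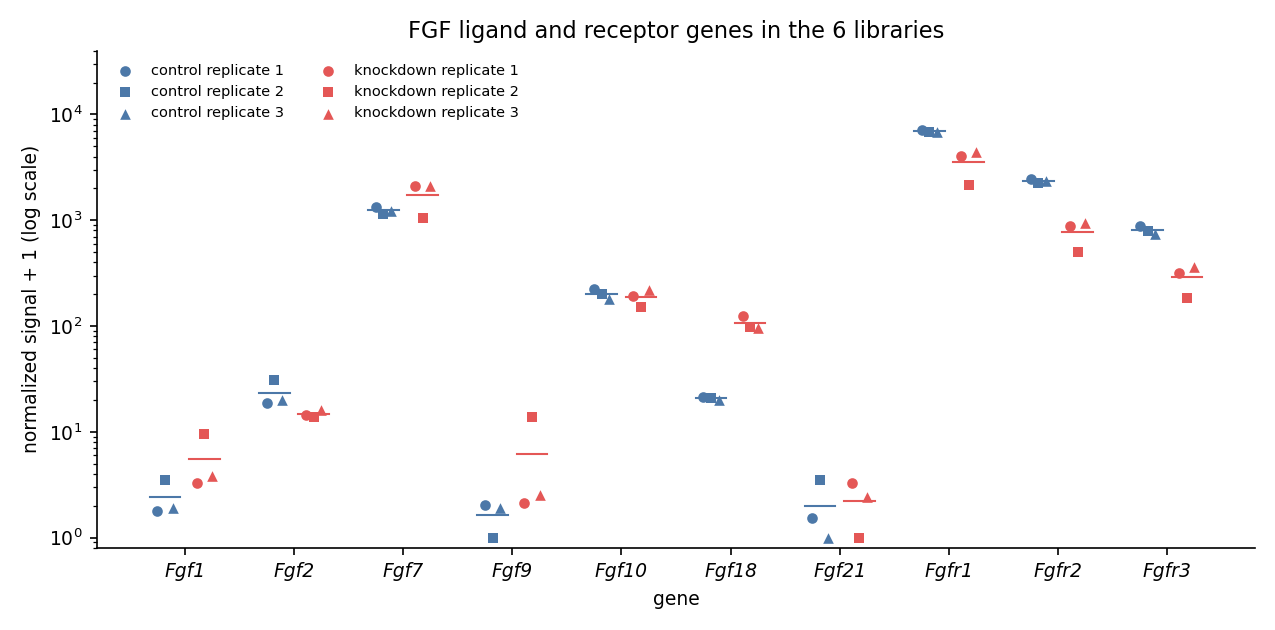
Normalized value, on a log axis of value + 1, of each of the 10 FGF genes in the 3 control and 3 knockdown libraries; each point is a library, with its shape giving the replicate, and horizontal bars mark group means. Fgf18 is higher and Fgfr1, Fgfr2 and Fgfr3 are lower in all 3 knockdown libraries than in any control, and knockdown replicate 2 is the lowest point of each receptor.

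Fgf18 encodes a ligand that acts mainly on the mesenchymal isoforms of the receptors and is needed for normal cartilage and bone growth. Replicates 1, 2 and 3 of the control cells read 20.2, 20.05 and 18.97, and those of the knockdown 123, 97.8 and 95.2. The groups were far apart, and the lowest knockdown value was several times the highest control. The mean of 19.7 ± 0.67 became 105 ± 15.5 (SD, n = 3), a rise of 5.34-fold (log2 fold change 2.35, 95% confidence interval 1.87 to 2.84, limma adjusted p = 0.00758). These values rest on an estimated 78, 8 and 21 reads in the controls and 218, 23 and 134 in the knockdowns. Fgf18 was the only gene of the 10 in the authors' deposited table of 323 differential genes, where its fold was 5.41. The name of that table points to a cutoff on fold change, so absence from it does not mean that a gene was unchanged.

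The size of the Fgf18 change was 2.23 to 2.42 on the log2 scale whichever library was left out, but its call was not kept in every such fit. Leaving out knockdown replicate 2 gave 2.40 (limma adjusted p = 2.23e-06) and leaving out knockdown replicate 3 gave 2.42 (0.0456). Without control replicate 1, 2 or 3, or knockdown replicate 1, the limma adjusted p was 0.0659, 0.0602, 0.0852 and 0.0578. In the fits without a control replicate, none of the genes in the whole table passed, and those without knockdown replicate 1 or 3 called 0.232% and 0.778% of genes.

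Fgf7, keratinocyte growth factor, was the most abundant of the ligands and is classically made by mesenchyme for neighbouring epithelium. It measured 1323, 1155 and 1232 in control cells and 2096, 1042 and 2092 after knockdown. Knockdown replicates 1 and 3 were above every control, while knockdown replicate 2 was below every control. With all 6 libraries the log2 fold change was 0.43 (95% confidence interval −0.33 to 1.18, limma adjusted p = 0.451). Without knockdown replicate 2 it was 0.76 (limma adjusted p = 1.27e-06), so the call on Fgf7 depended on that library.

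Fgf18 and Fgf7 also differ in the DNA just before their start sites. The 250 bases upstream of each are shown because they are the richest and the poorest in CpG among the ligand windows found. They are RefSeq windows on mouse build GRCm38.p6, written 5′ to 3′ on the gene's strand, with each CpG in capitals; a RefSeq start need not be the start used in these cells.
Fgf18, chr11:33147401-33147650, minus strand: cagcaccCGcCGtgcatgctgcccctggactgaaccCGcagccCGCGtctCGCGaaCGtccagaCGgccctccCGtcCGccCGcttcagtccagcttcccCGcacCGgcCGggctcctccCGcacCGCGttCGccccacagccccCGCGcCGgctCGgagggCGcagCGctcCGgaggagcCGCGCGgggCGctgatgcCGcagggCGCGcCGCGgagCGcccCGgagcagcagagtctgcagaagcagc
Fgf7, chr2:126034408-126034657, plus strand: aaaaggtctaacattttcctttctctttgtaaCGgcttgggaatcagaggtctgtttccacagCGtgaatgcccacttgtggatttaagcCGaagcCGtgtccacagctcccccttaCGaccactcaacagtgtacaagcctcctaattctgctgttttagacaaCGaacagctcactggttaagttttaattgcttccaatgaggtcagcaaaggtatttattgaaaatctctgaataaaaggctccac
The Fgf18 window holds 37 CpG, more than 97.8% of the 32851 RefSeq windows of that length, whose median is 6. The Fgf7 window holds 6. A GC box (the letters GGGCGG on either strand, each match also holding a CpG) occurs once before Fgf18 and not before Fgf7, and 32.7% of all windows hold one.

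Fgf10, a limb and lung bud ligand made by mesenchyme, did not pass the test, and its groups overlapped. It measured 221, 198 and 179 in control cells and 189.9, 149 and 218 after knockdown. The log2 fold change was −0.11 (95% confidence interval −0.61 to 0.38, limma adjusted p = 0.729), and its sign turned without knockdown replicate 2 (0.04). The interval leaves out a change as large as that of Fgf18 in either direction.

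Fgf2, basic FGF, was low and every knockdown value lay below every control. It measured 17.9, 30.1 and 18.97 in control cells and 13.6, 12.8 and 14.9 after knockdown, and its value in knockdown replicate 2 is 3 reads. The log2 fold change was −0.63 (95% confidence interval −1.34 to 0.09, limma adjusted p = 0.296), so the difference did not pass. Fgf2 overlaps Nudt6 on the opposite strand, which measured 69.3, 60.1 and 62.3 in control cells and 54.8, 55.3 and 44.8 after knockdown (limma adjusted p = 0.397). No source used here gives the strand setting of the counting, so how reads from the overlap were divided between the 2 genes is not known.

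Fgf1, Fgf9 and Fgf21 were near the limit of detection and lay under the filter on low values. Fgf1, acidic FGF, had 2.98, 1 and 1 estimated reads in the controls and 4, 2 and 4 in the knockdowns. Fgf9, which signals in limb and lung development, had 3.92, 0 and 1 reads against 2, 3 and 2.13. Its normalized values were 1.02, 0 and 0.903 against 1.13, 12.8 and 1.51, so every knockdown was above every control on that scale, while the reads overlapped. Fgf21, a circulating metabolic hormone known best from liver, had 2, 1 and 0 reads against 4, 0 and 2. The knockdown replicate 2 value of Fgf9 is 3 reads scaled up. With no filter on low values, a fit that called 3.81% of all genes, none of the 3 passed (limma adjusted p = 0.348 for Fgf1, 0.408 for Fgf9 and 0.864 for Fgf21). In that fit 0 of 3 had an unadjusted limma p under 0.05, against 2904 of 16507 genes.

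Fgfr2 showed the largest fall among the receptors. It encodes a receptor whose 2 main splice forms divide between epithelium and mesenchyme, and values per gene do not separate them. It measured 2457, 2258 and 2345 in control cells and 878, 497 and 948 after knockdown. The groups did not overlap, and knockdown replicate 2 was the lowest. The mean fell from 2353 ± 99.96 to 774.5 ± 242.5 (SD, n = 3), 3.04-fold lower, with a log2 fold change of −1.66 (95% confidence interval −2.33 to −0.98, limma adjusted p = 0.0325). Without knockdown replicate 2 the log2 fold change was −1.37 (limma adjusted p = 9.41e-09). Leaving out control replicate 1, 2 or 3, or knockdown replicate 1 or 3, gave limma adjusted p = 0.160, 0.155, 0.172, 0.105 and 0.0741, with log2 fold changes between −1.83 and −1.62.

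Fgfr3, the receptor whose activation slows the growth plate, fell to a like degree from a lower level. It measured 887, 792 and 739.8 in control cells and 319, 183 and 359.6 after knockdown, with no overlap. The mean fell from 806 ± 74.9 to 287 ± 92.7 (SD, n = 3), 2.81-fold lower, with a log2 fold change of −1.54 (95% confidence interval −2.24 to −0.84, limma adjusted p = 0.0431). Without knockdown replicate 2 it was −1.24 (limma adjusted p = 4.20e-07). Leaving out control replicate 1, 2 or 3, or knockdown replicate 1 or 3, gave limma adjusted p = 0.202, 0.187, 0.189, 0.130 and 0.0800. Scaling each library to the same total, in place of the authors' median scaling, left both receptors short of the threshold (limma adjusted p = 0.112 for Fgfr2 and 0.140 for Fgfr3), with log2 fold changes of −1.80 and −1.68, and called 2.5% of all genes. With upper-quartile scaling they stood at −1.60 and −1.48 (limma adjusted p = 0.0514 and 0.0712), where 3.97% of all genes were called.

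Fgfr1, the main receptor of mesenchymal cells, was the most abundant gene of the 10. It measured 7049.8, 6871 and 6876 in control cells and 4044, 2134 and 4377 after knockdown. Its controls lay within a narrow band and all 3 knockdowns were lower, but they spread widely. The means were 6932 ± 102 and 3518 ± 1210 (SD, n = 3), and the log2 fold change of −1.05 (95% confidence interval −1.79 to −0.30) did not pass (limma adjusted p = 0.127). Without knockdown replicate 2 it was −0.72 (limma adjusted p = 7.29e-07), a smaller difference with a smaller spread.

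The upstream windows of Fgfr2 and Fgfr3 are shown because both receptors fell and their windows differ in CpG. The second Fgfr3 window belongs to another RefSeq start of the gene. Build, strand direction and capitals are as for Fgf18.
Fgfr2, chr7:130266809-130267058, minus strand: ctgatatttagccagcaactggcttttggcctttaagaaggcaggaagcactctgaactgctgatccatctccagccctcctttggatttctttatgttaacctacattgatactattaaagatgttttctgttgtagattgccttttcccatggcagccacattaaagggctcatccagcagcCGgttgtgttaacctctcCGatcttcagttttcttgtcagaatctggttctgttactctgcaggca
Fgfr3, chr5:33721474-33721723, plus strand: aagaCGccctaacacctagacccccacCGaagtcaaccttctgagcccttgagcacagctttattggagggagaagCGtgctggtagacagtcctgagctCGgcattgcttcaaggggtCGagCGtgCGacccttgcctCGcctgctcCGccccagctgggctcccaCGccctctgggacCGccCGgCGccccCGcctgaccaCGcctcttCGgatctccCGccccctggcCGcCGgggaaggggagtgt
Fgfr3, chr5:33722056-33722305, plus strand: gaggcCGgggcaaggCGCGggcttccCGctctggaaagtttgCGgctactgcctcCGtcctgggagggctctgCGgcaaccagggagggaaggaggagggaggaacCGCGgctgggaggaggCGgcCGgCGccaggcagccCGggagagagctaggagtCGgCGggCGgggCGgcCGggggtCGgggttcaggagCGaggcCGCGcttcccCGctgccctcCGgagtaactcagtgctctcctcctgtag
Fgfr2 has 2 CpG in its window, more than 18.8% of all windows, and Fgfr3 has 19 and 24, more than 80.3% and 88.0%. GGGCGG occurs 3 times and 2 times before Fgfr3 and not before Fgfr2. No window was found for Fgfr1 or Fgf1. Whether the CpG of a window goes with the direction of change was not tested. The other windows found held 20 CpG (Fgf2), 11 (Fgf9), 9 (Fgf21) and 8 (Fgf10). The letters CCGGAA, an ETS-type core, and CACGTG, an E-box, were searched on both strands too. CCGGAA was in none of the 9 windows of these 8 genes and in 12% of all windows, and CACGTG was once before Fgf21 and in 6.02% of all.

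**Figure D2:**
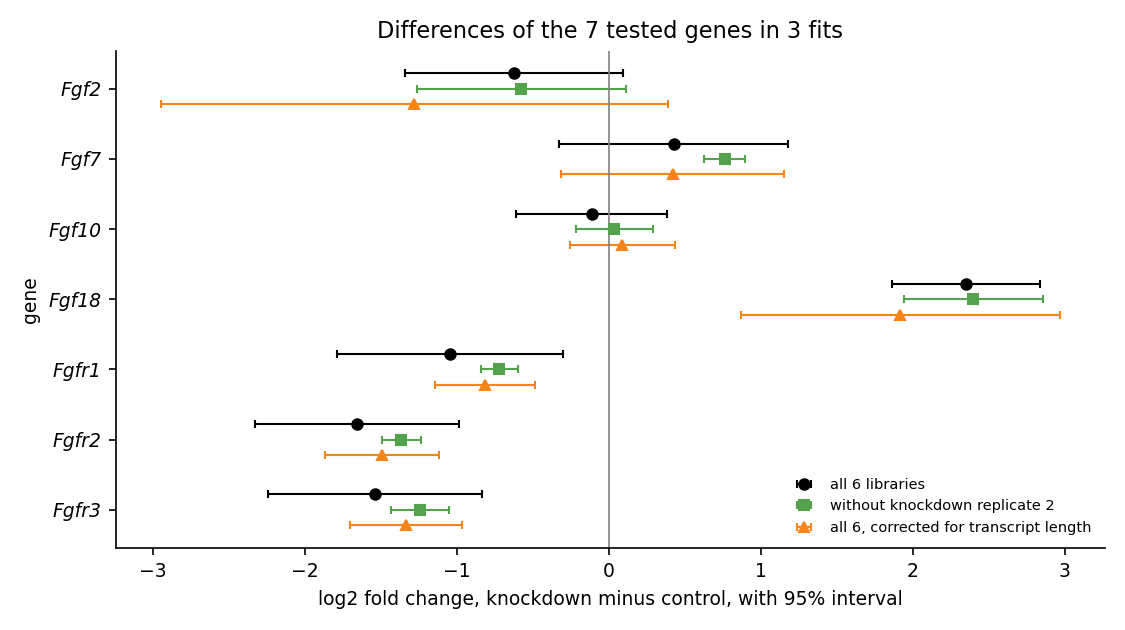
Log2 fold change, knockdown minus control, of the 7 tested FGF genes with its 95% confidence interval, for all 6 libraries, without knockdown replicate 2 and with a correction for transcript length. Fgf18 is at 2.35, 2.40 and 1.92 in the 3 fits, the receptors lie closer to 0 with narrower intervals in the other two fits than in the first, and Fgf7 is at 0.43, 0.76 and 0.42.

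Dividing by the median length of each gene's protein-coding transcripts allowed levels to be set side by side between genes. In the controls the order, in normalized value per kb, was Fgfr1 (1578 ± 23.2), Fgfr2 (624 ± 26.5), Fgf7 (499 ± 33.8), Fgfr3 (194 ± 18.1), Fgf10 (48.4 ± 5.13), Fgf2 (41.7 ± 12.6) and Fgf18 (19.0 ± 0.64; SD, n = 3), with Fgf1, Fgf21 and Fgf9 at 1.43 or less. Fgf10 and Fgf2 overlapped, as did the last 3. The level of Fgf2 depends on its transcript model, and with the longest transcript it was 3.73. Among all tested genes, the control level per kb of Fgfr1 was at percentile 95.1, that of Fgfr2 at 84.7 and that of Fgf18 at 12.1.

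In the knockdowns the order per kb was Fgfr1 (801 ± 275), Fgf7 (703 ± 245), Fgfr2 (205 ± 64.3), Fgf18 (101.5 ± 14.9), Fgfr3 (69.2 ± 22.3), Fgf10 (45.1 ± 8.49) and Fgf2 (25.7 ± 2.05; SD, n = 3), and Fgfr1 and Fgf7 overlapped, as did Fgfr3 and Fgf10. Fgf7 per kb was below Fgfr2 in every control, with 533 against 651, 466 against 598 and 497 against 621.5. It was above Fgfr2 in every knockdown, with 845.5 against 233, 420 against 132 and 844 against 251. Fgf18 was above Fgfr3 in every knockdown library, at 119, 94.2 and 91.7 against 77.0, 44.1 and 86.6. The ratio of Fgf7 to Fgf18 per kb went from 26.3 ± 1.84 to 6.93 ± 2.38 (SD, n = 3).

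The receptor mixture was read as the share of each gene in the summed Fgfr1 to Fgfr4 value per kb of a library, a quantity that library scaling does not touch. Fgfr1 made up 65.0, 66.5 and 66.2% in the controls and 74.8, 73.4 and 74.6% in the knockdowns. Fgfr2 made up 26.4, 25.4 and 26.3% against 18.9, 19.9 and 18.8%, and Fgfr3 8.66, 8.11 and 7.54% against 6.25, 6.66 and 6.49%. In all 3 shares the groups did not overlap, and knockdown replicate 2 sat with the other knockdowns. Being parts of the same sum, the 3 shares are not separate results. The Fgfr1 value per kb was itself lower in every knockdown than in any control, although its share was higher. The Fgfr1 share was 8.41 percentage points higher in the knockdowns (65.9 ± 0.80 and 74.3 ± 0.75%), that of Fgfr2 6.80 points lower (26.02 ± 0.51 and 19.2 ± 0.61%) and that of Fgfr3 1.63 points lower (8.10 ± 0.56 and 6.47 ± 0.20%; SD, n = 3). Each gave an exact two-sided permutation p of 0.1, the smallest that 3 against 3 allows, and 0.133 after Benjamini-Hochberg adjustment over 4 shares. Fgfr4 was at most 0.0641% of the sum. The sum itself was 2470.5, 2353 and 2365 per kb in the controls and 1231, 662 and 1335 in the knockdowns. The ratio of Fgfr1 to Fgfr2 per kb was 2.53 ± 0.08 and 3.87 ± 0.16, and that of Fgfr2 to Fgfr3 3.22 ± 0.23 and 2.97 ± 0.06 (SD, n = 3).

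**Figure D3:**
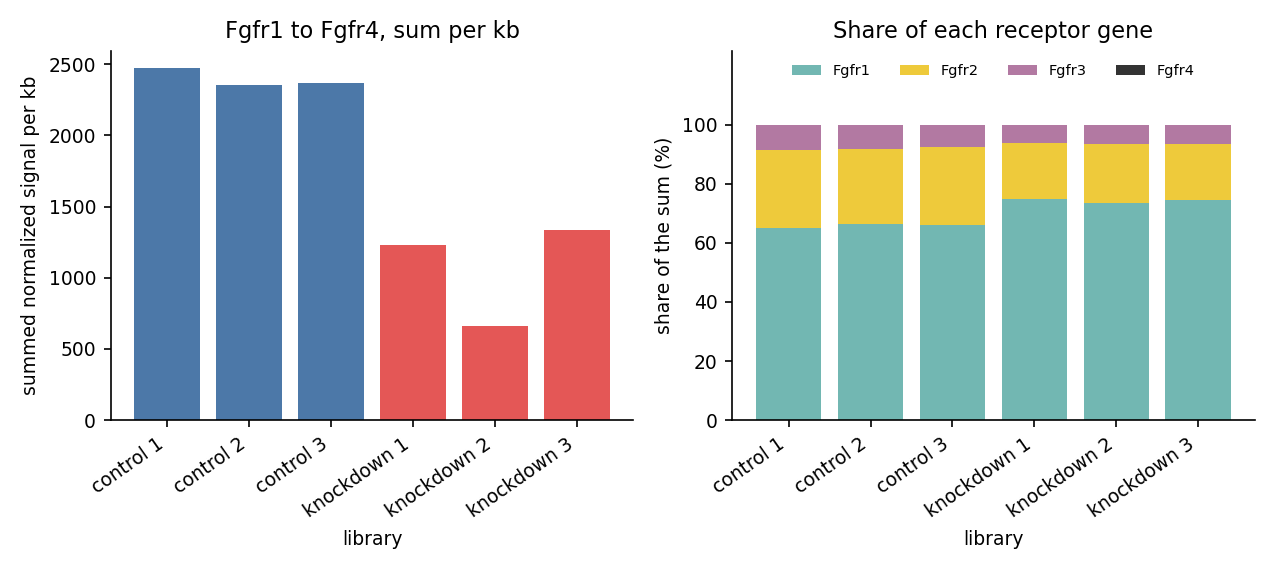
Left, summed Fgfr1 to Fgfr4 normalized value per kb in each library (blue, control; red, knockdown); right, share of each receptor gene in that sum, in percent, as 1 stacked bar per library. The sum is lower in all 3 knockdowns, Fgfr1 takes 65.0 to 66.5% in the controls and 73.4 to 74.8% in the knockdowns, and Fgfr2 takes 25.4 to 26.4% and 18.8 to 19.9%.

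Knockdown replicate 2 touched these genes unequally. Relative to the mean of the other knockdown libraries its log2 value was lower by 0.98 for Fgfr1, 0.87 for Fgfr2, 0.89 for Fgfr3 and 1.01 for Fgf7, and by 0.45 for Fgf10 and 0.15 for Fgf18 and for Fgf2. Across all tested genes that difference moved with transcript length. Its median was 1.09 in the shortest of 4 equal bins (median length 1280 nt) and −0.94 in the longest (median length 5300.5 nt). The receptors have median lengths of 4394 nt (Fgfr1), 3773 nt (Fgfr2) and 4150.0 nt (Fgfr3), Fgf10 has 4114 nt, Fgf7 has 2480 nt and Fgf18 has 1039 nt. With each library corrected for its trend with length, the log2 fold changes were 1.92 for Fgf18 (limma adjusted p = 0.0422), −1.49 for Fgfr2 (0.00452), −1.33 for Fgfr3 (0.00574) and −0.82 for Fgfr1 (0.0176). Fgf7 was at 0.42 (limma adjusted p = 0.403) with the correction, which called 11.3% of all genes.

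**Figure D4:**
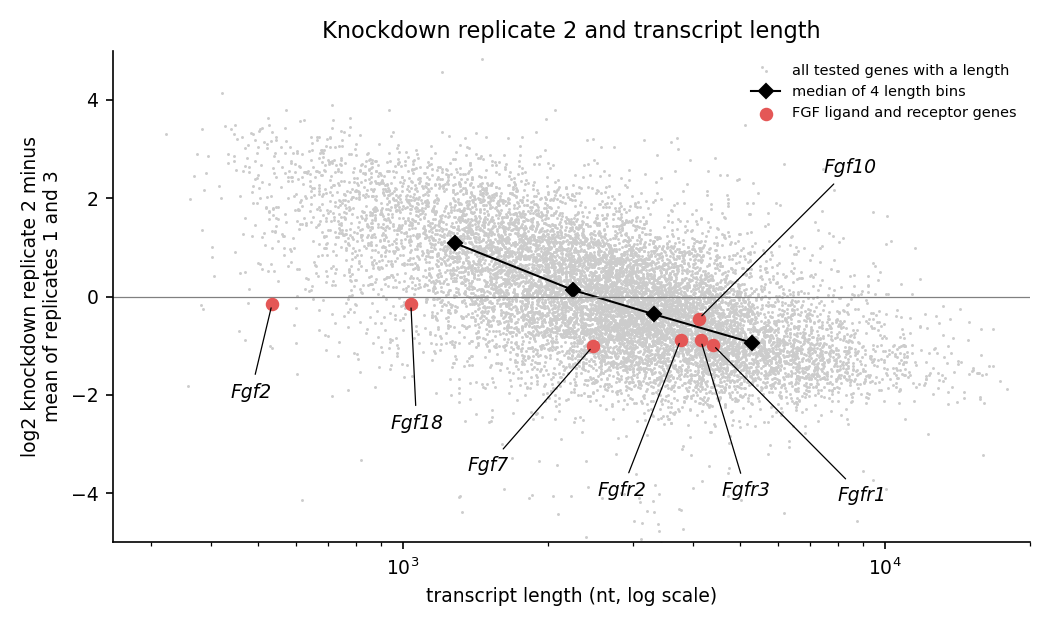
Log2 value of knockdown replicate 2 minus the mean of knockdown replicates 1 and 3, against median transcript length in nt on a log axis, for all tested genes (grey), the medians of 4 length bins (black) and the 7 tested FGF genes (red, named); both axes are limited, and points outside them are not drawn. Short genes lie mostly above 0 and long genes below it, Fgfr1, Fgfr2, Fgfr3 and Fgf7 lie between −1.01 and −0.87, and the short gene Fgf18 lies at −0.15, below the median of its bin (1.09). Fgf2, also at −0.15, is drawn at its median length of 535 nt. Its longest transcript has 5973 nt, so its bin depends on the transcript model.

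Among other genes of the family, Fgfrl1, a receptor-like gene without a kinase domain, measured 4354, 4067 and 4285 in control cells and 2175, 1169 and 2201 after knockdown. All 3 knockdowns were lower, but at −1.25 the log2 fold change did not pass (limma adjusted p = 0.0706). Leaving out knockdown replicate 2 gave −0.95 (limma adjusted p = 5.54e-08). Of 15 other Fgf genes, 1 passed the filter on low values: Fgf14, an intracellular family member, at 40.9, 25.1 and 37.9 against 20.5, 0 and 33.4 (limma adjusted p = 0.439). Of those 15 genes, 6 were listed at 0 in all 6 libraries.

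The rest of the pathway was read from a list of 111 genes grouped by role, of which 110 were in the table and 86 were tested. Of these, 8 were called higher and 2 lower, with a median log2 fold change of −0.13. All tested genes had 3.2% higher, 1.78% lower and a median of 0.01. Without knockdown replicate 2 the list's counts were 31 higher and 21 lower of 86, in a fit that called 23.8% of all genes higher and 26.1% lower. No gene of this list passed in any of the 5 fits that left out another library. In those fits 18 to 23 of the list had an unadjusted limma p under 0.05, against 1475 to 2482 of all genes (12081 to 12131 tested). The list was written with earlier results of these data known, and its counts are a description.

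Of 7 other receptors and partners, 1 was called and the other 6 did not pass, beside 4.98% of all tested genes called. The gene called was Ncam1, a neural cell adhesion molecule that can bind FGF receptors. It went from 341 ± 39.98 up to 746 ± 146 (SD, n = 3), a log2 fold change of 1.11 (limma adjusted p = 0.0429). Summed neuronal markers lay between 64.1 and 77.7 in the controls and between 161.5 and 198.5 in the knockdowns. Of them, Tubb3 rose by 1.32 on the log2 scale (limma adjusted p = 0.0225), and the other 4 of 5 had at most 3 reads in every library, with Snap25 at 0. The part of neuronal cells in the Ncam1 result was not tested.

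Of 22 heparan sulfate genes and ligand carriers, 2 rose and 2 fell, beside 3.2% and 1.78% of all tested genes. Hpse encodes heparanase, which cleaves heparan sulfate, and rose from 18.4 ± 1.51 to 70.4 ± 2.60, 3.83-fold (SD, n = 3; limma adjusted p = 0.00946). Gpc4, a membrane glypican, rose from 1362 ± 44.1 to 3089.9 ± 404 (limma adjusted p = 0.0165). Agrn, the basement membrane proteoglycan agrin, fell from 3401 ± 328 to 1215 ± 313 (limma adjusted p = 0.0271), and Gpc6, another glypican, from 2278 ± 46.2 to 1309 ± 191 (limma adjusted p = 0.0492).

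None of 29 intracellular transducers passed with limma, beside 4.98% of all tested genes. None had an unadjusted limma p under 0.05 in either direction, against 2473 of all 12085 tested genes. The most abundant were Akt1, at 5638 ± 106 and 5507 ± 305, and Ptpn11, the phosphatase Shp2, at 3572 ± 120 and 4000.2 ± 1214 (SD, n = 3). Their median log2 fold change was −0.33, and without knockdown replicate 2 it was −0.06, with 3 called higher and 8 lower of 29, beside 23.8% and 26.1% of all genes.

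Of 14 feedback inhibitors 1 rose and 0 fell, beside 3.2% and 1.78% of all tested genes. The 1 that rose was Spry4, a Sprouty protein, at 16.8, 7.52 and 15.4 in the controls and 96.7, 55.3 and 139 in the knockdowns (log2 fold change 2.76, limma adjusted p = 0.0327). Its value in control replicate 2 is an estimated 3 reads. The median of the 14 was 0.12 (log2), and 5 had an unadjusted limma p under 0.05 with higher values, against 1301 of all 12085 tested genes. Without knockdown replicate 2 the test called 8 higher and 0 lower of 14, beside 23.8% and 26.1% of all genes. Of 13 transcriptional outputs, 4 were called higher and 0 lower, beside 3.2% and 1.78% of all tested genes, with a median of 0.74. Etv4, an ETS factor, stood at 21.0, 32.6 and 20.8 against 132, 221 and 140.0 (limma adjusted p = 0.0127), and its relative Etv5 at 273, 281 and 248 against 631, 616 and 766 (0.0138). Ccnd1, cyclin D1, rose from 3234 ± 126 to 7779 ± 787 (SD, n = 3; limma adjusted p = 0.0139). Phlda1, a pleckstrin homology domain protein, rose from 1118 ± 27.3 to 1876 ± 166 (limma adjusted p = 0.0424). These 4 output genes are named because they passed, so their side of the controls was fixed by that choice. Of the 13 outputs, the knockdowns lay wholly above the controls in 7 and wholly below in 2, beside 20.5% and 23.7% of all tested genes. Without knockdown replicate 2, limma called 8 outputs higher and 2 lower, beside 23.8% and 26.1% of all genes. In the authors' deposited table of 323 genes, whose name points to a fold cutoff, the list had Spry1 (fold 5.90), Spry4 (7.39) and Etv4 (6.74).

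**Figure D5:**
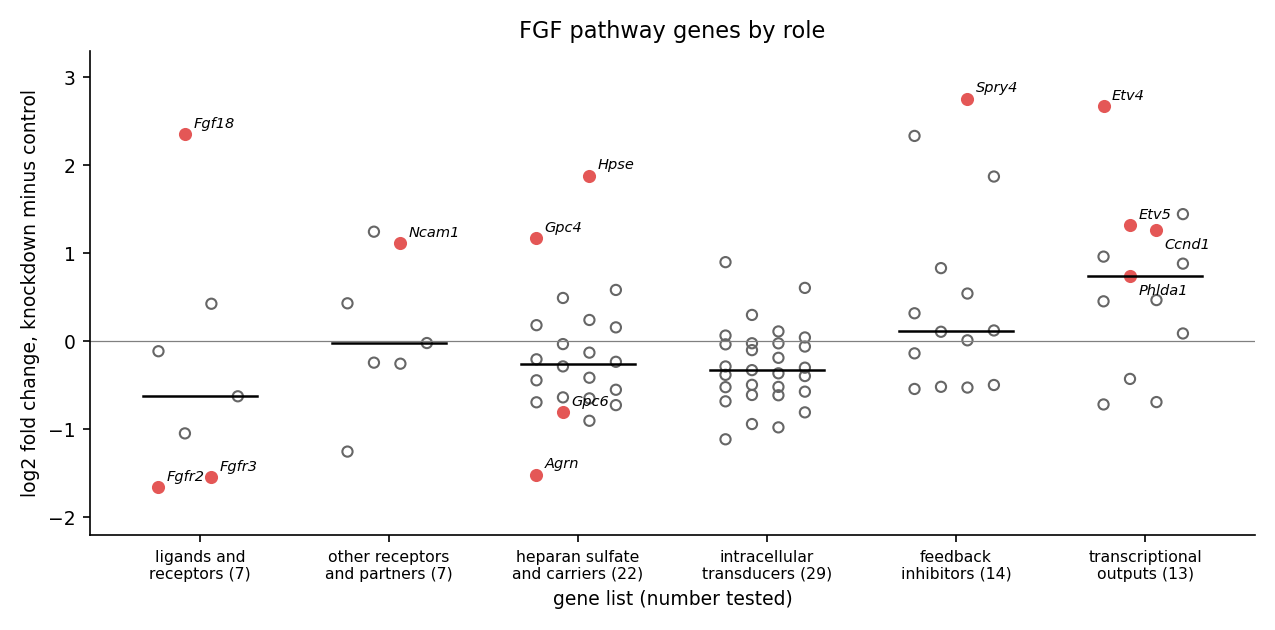
Log2 fold change, knockdown minus control, of each tested gene of the FGF pathway by role; filled red points passed at a limma adjusted p of 0.05, open points did not, and bars mark the median of each role; the 7 tested ligands and receptors are at the left. Transducers have no filled point and a median of −0.33, and outputs have 4 filled points, all above 0, and a median of 0.74.

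For Fgf18 and Fgfr2, the tested ligand and receptor with the smallest adjusted p, the genes with the nearest profile were found by Euclidean distance between the 6 mean-centred log2(value + 1) values. Genes with predicted or clone names were left out of the search. Nearest to Fgf18 were Rgag4 (0.35), Rasl11a (0.42) and Cdh17 (0.51). Rgag4 and Cdh17 each had an estimated 3 reads in control replicate 2. Rasl11a, a Ras-like GTPase gene, measured 12.4, 17.5 and 13.5 in control cells and 85.9, 80.8 and 62.5 after knockdown. Nearest to Fgfr2 were Fzd8 (0.05), Sox9 (0.09) and Klf13 (0.19). Fzd8, a Wnt receptor, measured 1942, 1831 and 1920 in control cells and 709, 412 and 765 after knockdown. Sox9, a cartilage transcription factor, stood at 7254, 6469 and 6411 against 2428, 1420.1 and 2748. The profiles share the same 6 libraries, so these distances are a description.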

How the data were processed

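RNA sequencing of 6 C3H10T1/2 samples was used, 3 with scrambled siRNA and 3 with siRNAs against Ring1a and Ring1b, grouped by their labels. Trizol RNA went into Illumina TruSeq libraries, per the labels' protocols. The submitters' processing notes name Bowtie 1.0.0, RSEM 1.2.12 and build mm9. The authors deposited a normalized signal per gene and library, estimated counts divided by a library factor. They also deposited a table of 323 genes with a fold, the ratio of knockdown to control. Its name points to a fold cutoff, and no source used here names its test. Every column of both tables belongs to 1 of the 6 samples or to that comparison.

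In each library, 88.6 to 90.3% of values up to 20 reads were whole multiples of the smallest step (within 0.1 read); as whole reads could not be recovered, count models were left aside. Deposited totals were 13100000 to 19500000. A floor of 3 reads covers counting error only. Every pair of libraries within a group differed by more than sampling noise (chi-square at least 1.505 per degree of freedom).

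Genes with a mean of at least 10 were fitted as log2(value + 1) in R 4.3.3 by limma 3.58.1 (two-sided moderated test, eBayes trend and robust both on, Benjamini-Hochberg over 12085 genes, threshold 0.05). SE and intervals are the moderated model's, and the fit was tested on simulated data. Receptor shares were compared by exact permutation in Python 3.11.15 with numpy 2.4.6, and adjusted over the 4 shares with scipy 1.17.1. Transcript lengths are medians of GENCODE M21 basic protein-coding transcripts, known for 98.9% of tested genes. Promoter windows are RefSeq, GRCm38.p6, a newer build than the authors', used only for sequence. Alternatives were other scalings, filters, pseudocounts, a replicate block, library weights, a length correction, another variance model and each library left out; the longest transcript for the receptor shares was added after seeing the data. The members and lists were chosen with earlier results of these data known. Genes named are the siRNA targets, the 10 members, up to 4 passing genes per role by smallest adjusted p (otherwise the 2 most abundant), family genes above the filter and the 3 nearest profiles; Spry1, Nudt6, the mesenchymal markers named and the genes of the closing section were added after their values were seen.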

Additional observations from a re-analysis of the deposited data

How the results depend on the processing

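Fgf18 kept its direction in all 16 alternatives (log2 fold change 1.92 to 2.46) and its call in 11. Fgfr2 (−1.83 to −1.37) and Fgfr3 (−1.73 to −1.24) kept direction in all 16 and their call in 8 each. Fgf7 passed in 2 and Fgfr1 in 3. Fgf10 changed sign with library weights (0.0138) and the length correction (0.0880), and lay between −0.238 and 0.0366 with a library left out, above 0 without knockdown replicate 2. Genes called higher went from 387 to 184 with total scaling, 3048 with library weights and 833 with the length correction; genes called lower from 215 to 118, 3254 and 517, and to 130 with upper-quartile scaling. Leaving out 1 library gave 0 to 2855 higher and 0 to 3136 lower. Without a control replicate limma called 0 genes, with 1475 to 1529 at an unadjusted p under 0.05. FGF genes called higher (1) became 2 with library weights and 0 to 2 with a library left out. Those called lower (2) became 0 with total and upper-quartile scaling and 0 to 3 with a library left out. Total scaling moved the median of all genes by −0.14 (log2); relative to it Fgf18 was at 2.36, Fgfr2 at −1.66 and Fgfr3 at −1.54. Other pathway genes called higher (8) became 3 with total scaling, 29 with weights, 14 with the length correction and 0 to 31 with a library left out. Those called lower (2) became 0 with total scaling, 21 with weights, 3 with the length correction and 0 to 21 with a library left out. They became 1 with upper-quartile scaling, no filter, a mean of at least 50, a pseudocount of 0.1, and no trend or robust option. The receptor shares kept direction in all 8 alternatives; with a library left out the differences were 7.96 to 8.84 points for Fgfr1, −7.16 to −6.61 for Fgfr2 and −1.91 to −1.35 for Fgfr3. Whether replicate numbers pair the samples was not settled by the deviations from group means. Same-number deviations correlated at 0.170, −0.051 and −0.051, and those of unlike numbers at −0.172 to 0.113. With the replicate block limma called 0 genes in either direction (1866 unadjusted), 0 FGF genes higher and 0 lower (1 and 3 unadjusted), and 0 other pathway genes in either direction (19 unadjusted). Depth limits Fgf1, Fgf9 and Fgf21, and Fgf2 in knockdown replicate 2.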

Other observations

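Other low genes of the pathway lay under the filter with groups that did not overlap, and were singled out after their values were seen. Dusp9, an ERK phosphatase gene, measured 1.29, 0 and 0 in control cells and 11.9, 8.503 and 12.8 after knockdown, from 5, 0 and 0 reads against 21, 2 and 18. Gpc3, a glypican gene, stood at 1.81, 2.51 and 1.81 against 9.61, 8.503 and 7.11, from 7, 1 and 2 reads against 17, 2 and 10. Without the filter on low values both passed (limma adjusted p = 0.0227 for Dusp9 and 0.0424 for Gpc3). In knockdown replicate 2 both rest on 2 reads, within the limit of 3 that a count of 0 allows. Unlike these 2 genes, Fgf17 had groups that overlapped. It measured 3.88, 2.51 and 11.7 in control cells and 3.39, 29.8 and 2.13 after knockdown, and its highest value is in knockdown replicate 2, the library of lowest depth.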
